A study of Homo sapiens with 16 samples.

Results

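The 9 keratinocyte lineage transcription factors TP63, KLF4, KLF5, GRHL1, GRHL2, GRHL3, OVOL1, ZNF750 and CEBPA were followed through RNA-seq of 2 human squamous cell lines in which the transcriptional co-activator YAP was depleted or overexpressed. They were taken by gene symbol from the deposited gene count table. All 9 of the 9 symbols were among its 26229 listed genes, and all 9 passed the filter of a mean above 10 counts per library. The lines were A431, from an epidermoid carcinoma, and HaCaT, a line of spontaneously immortalised keratinocytes, both without a further allele named in the labels.

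Each line had 1 library with control siRNA (siCTRL), 3 with YAP1 siRNA (siYAP), 1 with an empty vector and 3 with a vector for YAP1 S5A, a constitutively active YAP written here as YAP5SA, which makes 16 libraries in 8 groups. The siRNAs were transfected in 2 rounds, 24 h apart, and RNA was taken 48 h after the second transfection. No promoter, clone or selection of the vector is named in the sources used here. Because each control group was a single library, the spread behind every test came from the 4 treated triplicates, and no test could show how far a control culture varies. The sources call the triplicates biological, but nothing in the labels names separate cultures, so the p-values measure the spread between these libraries.

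In stratified epidermis, p63 maintains the basal layer and sets the epithelial programme. KLF4, the grainyhead-like factors GRHL1 and GRHL3, OVOL1, ZNF750 and C/EBPα act as cells leave that layer and build the barrier. KLF5 is best known from proliferating epithelial cells. YAP does not bind DNA itself and is brought to its targets by other factors, chiefly TEAD proteins.

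The promoters of KLF4 and KLF5 are shown because these 2 Krüppel-like factors had opposite levels across the HaCaT libraries, as described below. Each is a RefSeq window of 300 bases in GRCh38.p14, from 250 bases before to 50 bases after an annotated start, on the strand of the gene. KLF4 lies at chr9:107489720-107490019 on the minus strand, and the window of KLF5 is at chr13:73058755-73059054 on the plus strand. Capitals mark every match to the Krüppel-like motif CCNCNCCC on either strand, with overlaps allowed.
KLF4: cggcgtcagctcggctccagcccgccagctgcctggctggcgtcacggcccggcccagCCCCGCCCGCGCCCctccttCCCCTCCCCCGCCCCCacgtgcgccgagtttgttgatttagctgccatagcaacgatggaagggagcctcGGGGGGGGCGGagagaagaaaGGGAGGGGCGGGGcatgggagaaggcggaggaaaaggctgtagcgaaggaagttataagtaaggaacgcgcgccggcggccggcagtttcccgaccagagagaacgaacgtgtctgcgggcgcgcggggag
KLF5: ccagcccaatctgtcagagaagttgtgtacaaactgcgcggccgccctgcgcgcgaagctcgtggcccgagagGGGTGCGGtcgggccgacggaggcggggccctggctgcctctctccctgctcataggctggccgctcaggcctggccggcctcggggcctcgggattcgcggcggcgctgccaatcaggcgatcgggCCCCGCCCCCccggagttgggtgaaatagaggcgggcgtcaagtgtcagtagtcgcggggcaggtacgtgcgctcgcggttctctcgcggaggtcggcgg
The KLF4 window held 10 matches, which 1.07% of all 35116 windows reached or passed, and the KLF5 window held 3, which 23.6% reached or passed. G and C made up 69.0% of the KLF4 window and 71.3% of this KLF5 window. The shares over all windows were not matched for G and C content, and overlapping matches were each counted. A second annotated KLF5 start had none.

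Windows were found for 6 of the 9 factors, TP63, KLF4, KLF5, GRHL1, GRHL3 and CEBPA, and numbered 8 in all. TP63 had a single window, at chr3:189631139-189631438, so any other start of TP63 was not examined. At least 1 Krüppel-like match was in 5 of the 8 windows, against 56.2% of all windows. The TEAD motif GGAATG was in 0 of 8, against 14.03% of all windows, the grainyhead motif AACNNGTT was in 0 of 8, against 3.52%, and the AP-1 motif TGANTCA was in 0 of 8, against 7.71%. These counts describe the letters in short windows and say nothing of binding.

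The libraries held 18115624 to 46791673 assigned read pairs, and levels are given as CPM, counts scaled to the TMM-adjusted size of the library, so a level may be compared between libraries for 1 gene but not between genes. YAP1 itself followed the labels. It stood at 94.2 CPM in A431 siCTRL and at 5.04 to 6.99 CPM in siYAP, and in HaCaT at 254 CPM and at 21.6 to 23.2 CPM. With YAP5SA it reached 1494 to 3244 CPM in A431 against 124 CPM with the empty vector, and 7546 to 22243 CPM in HaCaT against 423 CPM. EGFR, known to be amplified in A431, lay at 749.6 to 1357 CPM in the A431 libraries and at 297 to 557 CPM in HaCaT.

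All 8 keratinocyte markers examined (KRT5, KRT14, KRT6A, KRT17, DSP, CDH1, ITGB4 and JUP) had more than 3 counts in every library. The siRNA and vector libraries of HaCaT stood apart in other markers. Their summed keratinocyte markers were 2569 to 3468 CPM in the 4 siRNA libraries and 4970.4 to 8220.0 CPM in the 4 vector libraries. The 6 fibroblast markers summed to 21.5 to 27.9 CPM and to 0.668 to 1.87 CPM, and the 3 endothelial markers to 15.98 to 59.1 CPM and to 1.18 to 2.38 CPM. The melanocyte markers, mostly MITF, summed to 44.9 to 118 CPM and to 33.8 to 62.3 CPM, with TYR at 3 counts or fewer in every library. The leukocyte gene CD3E was also at 3 counts or fewer in every library, and the 3 leukocyte markers summed to at most 1.19 CPM in HaCaT and 3.65 CPM in A431. In A431 the keratinocyte sums were 2740.0 to 3754 CPM with siRNA and 4329 to 5280.5 CPM with vector, the fibroblast sums 10.2 to 14.8 CPM with siRNA and 2.45 to 5.46 CPM with vector, and the endothelial sums 18.3 to 33.8 CPM and 3.88 to 5.92 CPM. The part of these differences in the results was not tested. Single genes made up much of the fibroblast and endothelial sums. CDH5 reached 51.8 CPM in HaCaT and 31.0 CPM in A431, DCN 14.2 CPM in HaCaT and LUM 12.7 CPM in A431. These sums do not show that cells of another type were present. Bulk RNA cannot tell expression in the line itself from other cells, nor fewer cells from less RNA per cell.

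**Figure D1:**
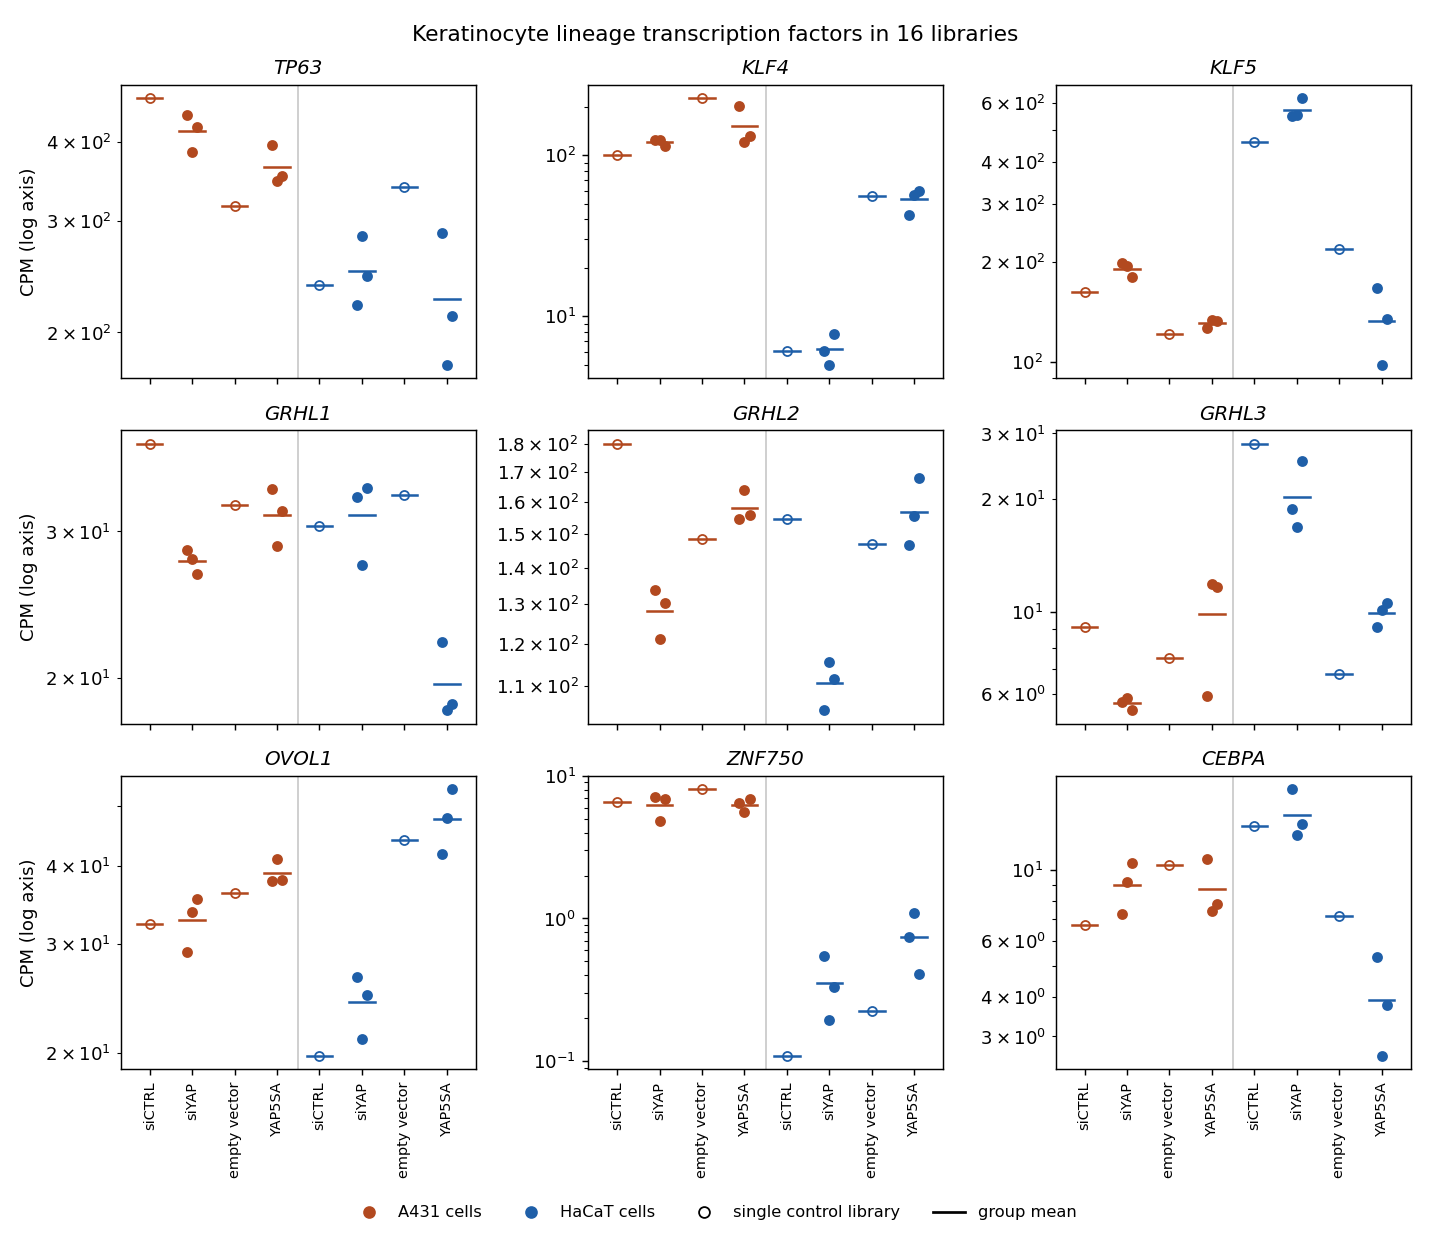
CPM of each factor in all 16 libraries, on a log axis, with 1 panel per gene. Filled points are the triplicate libraries, open points the single controls and bars the group means. KLF4 ran from 5.00 to 226 CPM and its HaCaT siRNA libraries lay below all others.

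With siYAP, GRHL2, a grainyhead-like factor that keeps epithelial junction genes active, was the 1 factor of the 9 called lower. In A431 it was 180.1 CPM in siCTRL and 134, 121 and 130.2 CPM across the 3 siYAP replicates. In HaCaT it was 155 CPM in siCTRL and 105, 116 and 112 CPM with siYAP. Every siYAP library lay below the control of its line.

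Over both lines the log2 ratio of GRHL2, meaning here and below the log2 fold change fitted by edgeR, was -0.49 (SE 0.083), a 1.4-fold fall, with an adjusted p of 0.00259 in the edgeR quasi-likelihood test. Here and below a gene is called when its adjusted p (FDR) is under 0.05 over all 14673 genes tested. Its mean logCPM over all libraries fitted, in the main fit all 16 of both lines, must also be above 1. Of all genes 13% were called in this comparison, and 1 of 9 factors was. The call was kept in all 13 alternatives. The fall was -0.49 (SE 0.117) in A431, with an FDR of 0.0297 by edgeR, where 5.6% of genes were called, and -0.48 (SE 0.118) in HaCaT, with an FDR of 0.0289, where 5.67% were. These single-line calls were less firm. Each was kept in 6 of 10 alternatives. The A431 call was lost without siYAP replicate 2 (FDR 0.0782) or 3 (0.0773), and the HaCaT call without siYAP replicate 1 (0.0867) or 3 (0.0691). Both were lost without a count filter, and the HaCaT call also with HaCaT fitted alone. With the empty vector library as a second control the A431 value was -0.36 (FDR 0.171 by edgeR), no call. The HaCaT call was kept with that control. The siYAP effect differed between the lines by -0.01 (SE 0.170).

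The related factors GRHL1 and GRHL3 were not called. GRHL1 was 38.2 CPM in A431 siCTRL and 28.5, 27.8 and 26.7 CPM with siYAP, and its log2 ratio was -0.47 (SE 0.166) with an FDR of 0.118 by edgeR. In HaCaT it was 30.5 CPM in siCTRL and 33.0, 27.3 and 33.9 CPM with siYAP, so the control lay inside the treated range. GRHL3, which acts late in barrier formation, was 9.11 CPM in A431 siCTRL and 5.71, 5.86 and 5.44 CPM with siYAP. In HaCaT it was 28.2 CPM in siCTRL and 18.8, 16.9 and 25.3 CPM with siYAP. All 6 siYAP libraries were below their controls, but over both lines the log2 ratio of -0.58 (SE 0.228) had an FDR of 0.114 by edgeR.

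TP63, the regulator of the basal state, was 468 CPM in A431 siCTRL and 440.4, 385 and 421 CPM with siYAP. In HaCaT it was 238 CPM in siCTRL and 221, 283 and 245 CPM with siYAP. The values over both lines differed by a log2 ratio of -0.05 (SE 0.153). Gene-level counts do not separate the TA and ΔN forms of p63.

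KLF5 lay above its control in all 6 siYAP libraries, with 163 CPM in A431 siCTRL and 198, 195 and 180.0 CPM with siYAP, and with 461 CPM in HaCaT siCTRL and 549, 554 and 621 CPM with siYAP. Over both lines the log2 ratio was 0.27 (SE 0.149) with an FDR of 0.253 by edgeR, which is no call. With the empty vector library of each line added to siCTRL as a second control it was 0.59 with an FDR of 0.0403, a call. For KLF5 these empty vector libraries stood below siCTRL, at 122 CPM in A431 and 219.7 CPM in HaCaT. This call therefore also holds the difference between the 2 kinds of control. KLF4 was 100.4 CPM in A431 siCTRL and 124, 124 and 113 CPM with siYAP, and 6.11 CPM in HaCaT siCTRL and 6.08, 5.00 and 7.76 CPM with siYAP. With the same second control the KLF4 value in HaCaT turned from 0.05 to -2.30 with an FDR of 0.0162, and over both lines from 0.16 to -1.37 with an FDR of 0.0313. This follows from the level of KLF4 in the HaCaT empty vector library, 55.5 CPM.

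OVOL1, a zinc finger factor of cells leaving the cycle, was 32.3 CPM in A431 siCTRL and 29.1, 33.8 and 35.4 CPM with siYAP, and 19.8 CPM in HaCaT siCTRL and 26.6, 21.1 and 24.8 CPM with siYAP. CEBPA, which encodes C/EBPα, was 6.71 CPM in A431 siCTRL and 7.31, 9.20 and 10.5 CPM with siYAP, and 13.8 CPM in HaCaT siCTRL and 18, 12.9 and 13.97 CPM with siYAP. ZNF750, a regulator of terminal differentiation, was 6.56 CPM in A431 siCTRL and 7.12, 4.82 and 6.84 CPM with siYAP. In HaCaT it had 2 counts in siCTRL and 28 over the 3 siYAP libraries, a ratio of 3.34 with an exact 95% interval of 0.843 to 28.96 that covers counting error only. None of these was called, and no change in HaCaT ZNF750 was detectable at this depth.

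GRHL2 was also examined for 2 sites of 7 bases, TTCTTAA and CTTCTTA, which earlier results on these data had brought up for siYAP. Its annotated 3′ UTR of 3023 bases held 1 of each. The TP63 UTR of 2777 bases held 1 TTCTTAA, and the UTRs of the other 7 factors held neither. At least 1 of the 2 sites was in 26.6% of 12093 UTRs, and in 52.8% of the 1507 UTRs of 2500 to 4000 bases. The share of UTRs with both sites was not counted. The part of these sites in the fall of GRHL2 was not tested.

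**Figure D2:**
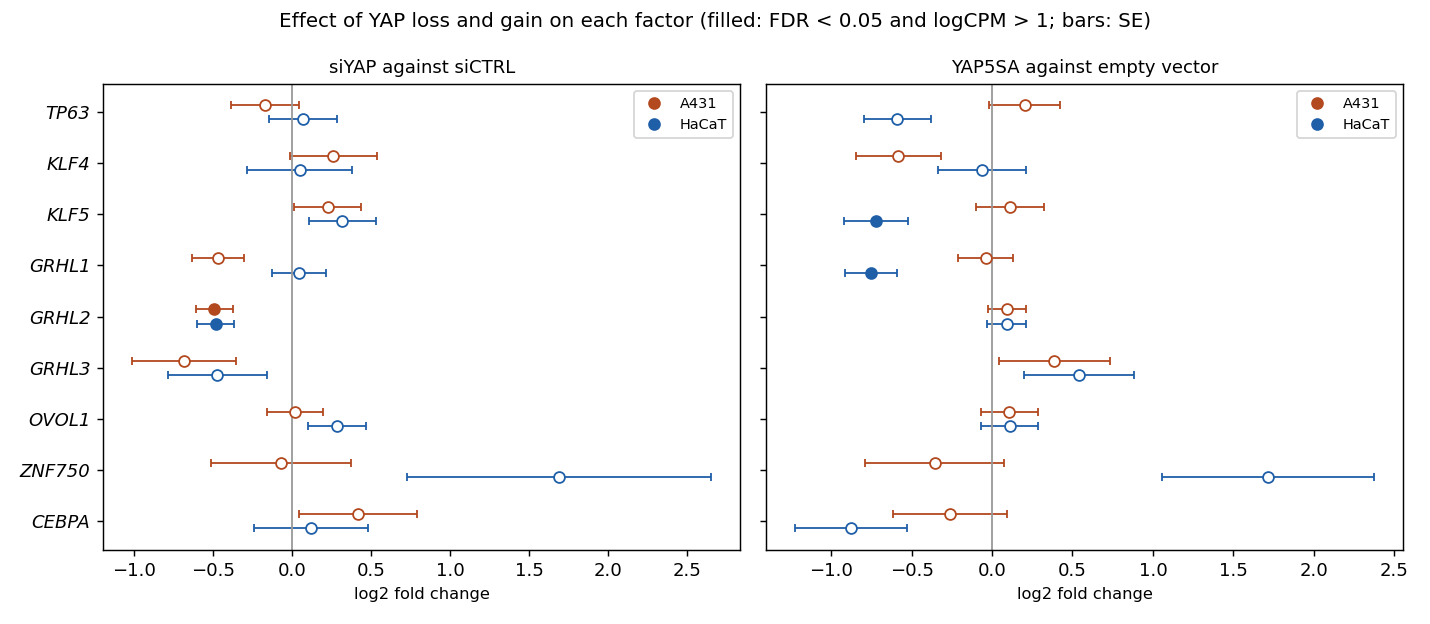
Log2 fold change of each factor for siYAP against siCTRL (left) and YAP5SA against empty vector (right) in A431 and HaCaT cells. Bars are standard errors and filled points are called. GRHL2 is filled in both lines on the left, and KLF5 and GRHL1 are filled in HaCaT on the right.

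Overexpression of YAP5SA gave lower KLF5 and GRHL1 in HaCaT cells and no call in A431 cells, where YAP1 itself was not called either. In HaCaT, KLF5 was 219.7 CPM with the empty vector and 167, 98.3 and 135 CPM with YAP5SA. Its log2 ratio was -0.72 (SE 0.200), a 1.65-fold fall with an FDR of 0.0318 by edgeR. GRHL1 was 33.2 CPM with the empty vector and 22.1, 18.3 and 18.6 CPM with YAP5SA. Its log2 ratio was -0.75 (SE 0.163), a 1.68-fold fall with an FDR of 0.0123. All 3 YAP5SA libraries lay below the control for both genes. These were 2 of 9 factors, where 13.6% of genes were called.

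Both calls were lost when HaCaT was fitted alone (FDR 0.102 for KLF5 and 0.0542 for GRHL1 by edgeR), and that of KLF5 also without YAP5SA replicate 3 (FDR 0.0649). With siCTRL added as a second control the log2 ratio of KLF5 was -1.35, and CEBPA (-1.41, FDR 0.0190) and ZNF750 (2.05, FDR 0.0247) were called as well. In siCTRL, KLF5 was 461 CPM and CEBPA 13.8 CPM, both above the empty vector, and ZNF750 was 0.109 CPM, below it. These values therefore also hold the difference between the 2 kinds of control. Without YAP5SA replicate 1 the count rose to 4 factors, with TP63 (FDR 0.00648) and CEBPA (FDR 0.0239) added.

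With every library kept and the empty vector as the control, edgeR called neither TP63 nor CEBPA in HaCaT. TP63 was 339 CPM with the empty vector and 287, 178 and 212 CPM with YAP5SA, a log2 ratio of -0.59 (SE 0.209) with an FDR of 0.0746 by edgeR, and with an FDR of 0.0454 by DESeq2. CEBPA was 7.19 CPM with the empty vector and 5.35, 2.61 and 3.77 CPM with YAP5SA, a log2 ratio of -0.88 (SE 0.349) with an FDR of 0.105. The treated libraries were all below the control for both genes. YAP1 also varied among these 3 libraries, at 7546, 22243 and 10064 CPM, and the library with the highest YAP1 had the lowest TP63, KLF5, GRHL1 and CEBPA of the 3. It also had the highest ZNF750 and the middle values of KLF4, GRHL2, GRHL3 and OVOL1. A relation to the level of YAP1 was not tested.

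ZNF750 in HaCaT had 7 counts with the empty vector and 83 over the 3 YAP5SA libraries, a ratio of 3.29 with an exact 95% interval of 1.53 to 8.44 for counting error. Its levels were 0.223 CPM with the empty vector and 0.743, 1.09 and 0.408 CPM with YAP5SA. ZNF750 met the logCPM rule, at 1.82 over both lines, through its A431 levels of 4.82 to 8.08 CPM. In HaCaT it reached at most 1.09 CPM. The edgeR test, which also weighs the spread between libraries, gave an FDR of 0.0943 against the empty vector alone, and the call was made with the second control, as given above.

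The other 4 factors were not called against the HaCaT empty vector library. KLF4 was 55.5 CPM with the empty vector and 42.8, 56.4 and 60.2 CPM with YAP5SA. GRHL2 was 147 CPM and then 147, 155 and 168 CPM. OVOL1 was 44.1 CPM and then 41.8, 47.7 and 53.2 CPM. These 3 overlapped their control, whereas GRHL3, at 6.81 CPM and then 9.09, 10.1 and 10.6 CPM, lay above it with a log2 ratio of 0.54 (SE 0.341) and an FDR of 0.295 by edgeR.

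In A431, 0 of 9 factors and 0% of genes were called by edgeR for YAP5SA, with 828 genes and 1 factor, KLF4, at an unadjusted p under 0.05. Even YAP1, 20.6-fold higher than with the empty vector, had an FDR of 0.197 by edgeR. The missing calls in A431 therefore do not show a missing response. KLF4 was 226 CPM with the empty vector and 201, 119.9 and 131 CPM with YAP5SA, a log2 ratio of -0.58 (SE 0.262) with an FDR of 0.803. TP63 was 317 CPM and then 395, 346 and 353 CPM. KLF5 was 122 CPM and then 127, 134 and 133 CPM. The A431 values of both lay above the empty vector library, with log2 ratios of 0.20 and 0.11, and with siCTRL added as a second control these were -0.11 and -0.12. For the remaining factors the fitted log2 ratios lay between -0.36 for ZNF750 and 0.39 for GRHL3. GRHL3 itself was 7.53 CPM with the empty vector and 5.94, 11.9 and 11.6 CPM with YAP5SA, on both sides of the control.

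Over both lines 0 of 9 factors were called for YAP5SA by edgeR, where 2.04% of genes were, and 2 factors, GRHL1 and CEBPA, had an unadjusted p under 0.05. GRHL1 had an FDR of 0.0883 by edgeR and of 0.0361 by DESeq2, 0.0385 by edgeR with siCTRL added as a second control, and 0.0452 and 0.0296 by edgeR without A431 or HaCaT YAP5SA replicate 1. The difference of the YAP5SA effect between the lines was called for 0 of 9 factors, with 0.0886% of genes called, and that of siYAP for 0 of 9, with 0.17%. Of the former, TP63, KLF5, GRHL1 and ZNF750 had an unadjusted p under 0.05 by edgeR, and none of the siYAP differences did. In the GRHL1 case the effect was higher in A431 by 0.71 (SE 0.240) with an FDR of 0.122. An effect called in 1 line alone was therefore not shown to differ between the lines.

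The 2 single control libraries of a line already differed from each other. In HaCaT, 4 of 9 factors were more than 2-fold apart between empty vector and siCTRL, where 31.9% of 12237 genes with logCPM above 1 were, on log2(CPM + 0.5) and with no test. KLF4 was 55.5 CPM with the empty vector and 6.11 CPM with siCTRL, and OVOL1 was 44.1 and 19.8 CPM. KLF5 was 219.7 and 461 CPM, and GRHL3 was 6.81 and 28.2 CPM. In A431, 1 of 9 factors was, KLF4 at 226 and 100.4 CPM, where 5.35% of genes were. With 1 library a group the difference has no replicate check.

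The treated triplicates, which compare 3 libraries with 3, showed the same genes apart in HaCaT. KLF4 was 53.1 ± 9.17 CPM (SD, n = 3) with YAP5SA and 6.28 ± 1.39 CPM (n = 3) with siYAP, a log2 ratio of 3.07 (SE 0.218, FDR 7.15e-08 by edgeR). OVOL1 was 47.6 ± 5.71 CPM with YAP5SA and 24.1 ± 2.79 CPM with siYAP, for a log2 ratio of 0.98 (SE 0.126). KLF5 was 133 ± 34.3 CPM with YAP5SA and 575 ± 40.5 CPM with siYAP, for a log2 ratio of -2.11 (SE 0.153, FDR 8.33e-08 by edgeR). The YAP5SA libraries lay wholly above siYAP for KLF4 and OVOL1 and wholly below for KLF5.

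CEBPA was 3.91 ± 1.38 CPM (SD, n = 3) with YAP5SA and 15.0 ± 2.68 CPM (n = 3) with siYAP in HaCaT, a log2 ratio of -1.93 (SE 0.261, FDR 2.32e-05 by edgeR). The log2 ratios were -1.04 for GRHL3, -0.67 for GRHL1 and 0.50 for GRHL2, all with groups that did not overlap. ZNF750, at 0.408 to 1.09 CPM with YAP5SA and 0.194 to 0.542 CPM with siYAP, was called at 1.03 with overlapping libraries. As given above, ZNF750 met the logCPM rule only through its A431 levels. Its FDR was 0.0427 by edgeR, and the call was lost in 6 of 11 alternatives with an FDR of up to 0.178, among them the fits without siYAP replicate 2 or 3 or YAP5SA replicate 1 or 2. In all 8 of 9 factors were called, where 60% of genes were. TP63 was the exception, at 178 to 287 CPM with YAP5SA and 221 to 283 CPM with siYAP.

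In A431 the same comparison called 3 of 9 factors, where 34.6% of genes were called. KLF5 was 131 ± 3.75 CPM (SD, n = 3) with YAP5SA and 191 ± 9.68 CPM (n = 3) with siYAP, a log2 ratio of -0.54 (SE 0.148, FDR 0.0119 by edgeR). GRHL2 was 158 ± 5.05 and 128 ± 6.53 CPM, a log2 ratio of 0.30 (SE 0.085, FDR 0.0141). GRHL3 was 9.82 ± 3.37 and 5.67 ± 0.213 CPM, a log2 ratio of 0.79 (SE 0.238, FDR 0.0189). The GRHL2 call was lost without siYAP or YAP5SA replicate 2, and that of GRHL3 without siYAP replicate 1 or 3 or YAP5SA replicate 2 or 3. GRHL2 was higher with YAP5SA in both lines, whereas GRHL3 was higher in A431 and lower in HaCaT. In these comparisons the kind of transfection changed along with YAP, so the 2 cannot be told apart. The markers given above also differed between the siRNA and vector libraries.

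The levels of the factors were next compared between A431 and HaCaT cells within each arm, and CEBPA was the 1 factor called in opposite directions in the 2 arms. The lines differ in more than their origin as tumour or immortalised cells, and each is 1 line. Among the siYAP libraries 8 of 9 factors were called between the lines, where 58.5% of genes were. KLF4 was 120.4 ± 6.04 CPM (SD, n = 3) in A431 and 6.28 ± 1.39 CPM (n = 3) in HaCaT, a 19.0-fold difference (log2 ratio 4.25, SE 0.227, FDR 4.06e-09 by edgeR). ZNF750 was 6.26 ± 1.25 and 0.355 ± 0.175 CPM, a 17.1-fold difference (log2 ratio 4.10, SE 0.395). Its HaCaT level rested on 14, 4 and 10 counts. TP63 was 416 ± 27.9 and 249.9 ± 31.4 CPM, with a log2 ratio of 0.73 (SE 0.154), and OVOL1 was 32.8 ± 3.27 and 24.1 ± 2.79 CPM, with one of 0.44 (SE 0.126).

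In the other direction, among siYAP libraries KLF5 was 191 CPM in A431 and 575 CPM in HaCaT on average, a log2 ratio of -1.59 (SE 0.150). GRHL3 was 5.67 and 20.3 CPM, a log2 ratio of -1.84 (SE 0.240). CEBPA was 9.01 and 15.0 CPM, a log2 ratio of -0.74 (SE 0.252, FDR 0.0195 by edgeR), a call lost without A431 or HaCaT siYAP replicate 1. GRHL2 was called at 0.21 (FDR 0.0405), a call lost in 7 of 11 alternatives, with RLE scaling and DESeq2 among them. GRHL1 overlapped between the lines.

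Among the YAP5SA libraries 5 of 9 factors were called between the lines, all higher in A431, where 50.2% of genes were called and 26.6% were called higher. KLF4 was 151 ± 43.8 CPM (SD, n = 3) in A431 and 53.1 ± 9.17 CPM (n = 3) in HaCaT, a 2.84-fold difference with a log2 ratio of 1.5 (SE 0.196). ZNF750 was 6.30 ± 0.681 and 0.747 ± 0.341 CPM, an 8.45-fold difference (log2 ratio 3.08, SE 0.352). Its HaCaT level rested on 29, 38 and 16 counts. TP63 was 365 ± 26.3 and 226 ± 56.0 CPM, with a log2 ratio of 0.69 (SE 0.154). GRHL1 was 31.4 ± 2.50 and 19.7 ± 2.10 CPM, with a log2 ratio of 0.68 (SE 0.120), and CEBPA 8.72 ± 1.89 and 3.91 ± 1.38 CPM, with one of 1.15 (SE 0.259). These 5 calls were kept in all alternatives in which the gene was tested. KLF5, at 127 to 134 CPM and 98.3 to 167 CPM, overlapped between the lines, as did GRHL2 and GRHL3. OVOL1 was lower in every A431 library than in HaCaT, with a log2 ratio of -0.29 (SE 0.124) and an FDR of 0.0639 by edgeR, and it was called with DESeq2 (0.0268), RLE scaling (0.0352) and a stricter count filter (0.0335).

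Whether the line difference itself changed between the arms was tested after these values had been seen. It did for 6 of 9 factors, where 40.2% of genes were called, and the 6 calls were kept in all 17 alternatives. CEBPA was lower in A431 than in HaCaT with siYAP and higher with YAP5SA, and the 2 log2 line differences were -1.89 apart (SE 0.362, FDR 0.00101 by edgeR). KLF4 was higher in A431 in both arms, by 2.75 more (SE 0.286) with siYAP. KLF5 (-1.57, SE 0.209) and GRHL3 (-1.83, SE 0.331) were lower in A431 with siYAP and overlapped between the lines with YAP5SA. GRHL1 (-0.86, SE 0.170) and OVOL1 (0.72, SE 0.177) made up the 6. TP63 was not called, with a difference of 0.04 (SE 0.216). YAP, the kind of transfection and the differences between HaCaT libraries described above cannot be told apart here.

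**Figure D3:**
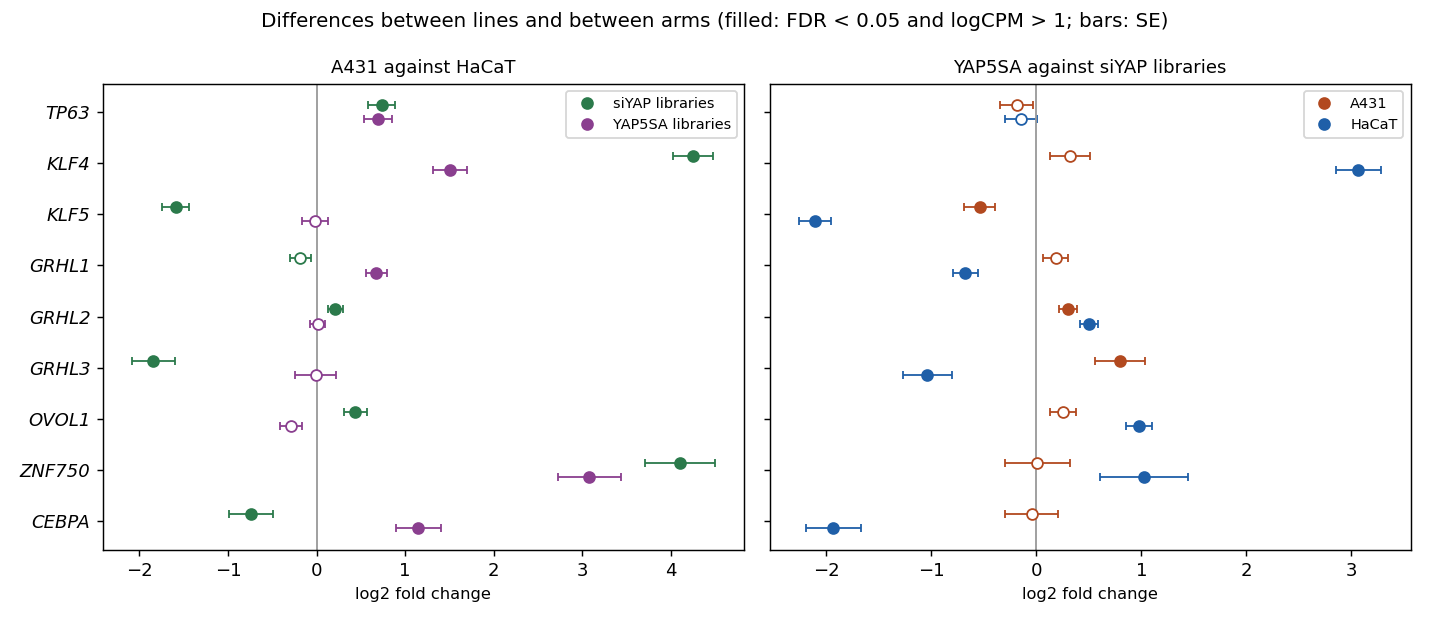
Log2 fold change of each factor between A431 and HaCaT (left, among siYAP and among YAP5SA libraries) and between YAP5SA and siYAP libraries (right, in each line). Bars are standard errors and filled points are called. KLF4 is 4.25 and 1.5 on the left and 3.07 in HaCaT on the right.

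Across the 16 libraries, with the mean of each line taken off, KLF4 and OVOL1 ran together (Pearson r = 0.93) and both ran against KLF5 (r = -0.92 and r = -0.91). KLF5 and CEBPA ran together (r = 0.89), whereas the strongest r of TP63 with another factor was -0.43, with ZNF750. These coefficients describe libraries that share arms and controls and carry no test. By the same measure over 12234 genes, the closest genes were PMAIP1 (0.98), TRIM21 (0.98) and OASL (0.98) for KLF4, CLHC1 (0.98), RABGAP1 (0.98) and BCAS3 (0.98) for KLF5, and ACTG1 (0.95), SMC5 (0.95) and MOB1A (0.93) for GRHL2. For OVOL1 they were LRRC58, ZNF114 and BNIP3, for CEBPA STK16, ALDH3B1 and FOXD2, and for GRHL1 NEBL, MATN2 and MTERF2. For TP63 they were HIBADH, KIF2A and FAM69A, for GRHL3 HNRNPUL1, HCG18 and IRGQ, and for ZNF750 SEMA4D, SLCO1B3 and PRTG, with r from 0.76 to 0.92 over the 3 sets.

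Other transcription factors of the epidermis were read from a list of 40, of which 33 were tested. With siYAP 1 was called higher and 1 lower in A431, where 5.6% of all genes were called, and 2 were called higher in HaCaT, where 5.67% were. CEBPB, which encodes C/EBPβ, a factor of early differentiation, rose in both lines. It was 30.6 CPM in A431 siCTRL and 55.2 to 57.6 CPM with siYAP, for a log2 ratio of 0.87 (SE 0.211, FDR 0.0305 by edgeR), and 6.06 CPM in HaCaT siCTRL and 11.9 to 13.5 CPM with siYAP, for a log2 ratio of 1.09 (SE 0.235, FDR 0.0163). MAF, another factor of late differentiation, rose in HaCaT from 2.68 CPM to 8.59 to 13.3 CPM. AHR, the aryl hydrocarbon receptor, fell in A431 from 267 CPM to 142 to 168 CPM. The median log2 ratio of the list was 0.06 in A431 and 0.10 in HaCaT, beside 0.03 for all genes in each line.

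With YAP5SA in HaCaT 2 of the 33 were called higher and 4 lower, where 13.6% of all genes were called, and in A431 0 were called. PPARD, a lipid-sensing nuclear receptor, rose from 7.77 CPM to 15.8 to 18.1 CPM, and RUNX1 from 28.3 CPM to 57.6 to 63.6 CPM. MAF fell from 4.33 CPM to 0.545 to 1.38 CPM, and ELF3, an epithelial ETS factor, from 204 CPM to 91.5 to 141 CPM. The list had a median of -0.13, beside 0.01 for all genes. Between YAP5SA and siYAP libraries of HaCaT 5 were called higher, SOX9 and BARX2 with log2 ratios of 1.35 and 1.18 among them, and 15 lower, POU2F3 and MAF with -4.60 and -3.68 among them, where 60% of all genes were called in either direction.

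Genes of the basal layer, which p63 is known to maintain, were read from a list of 25, all tested. With siYAP 3 were called higher and 1 lower in A431, where 5.6% of all genes were called, and 1 higher and 3 lower in HaCaT, where 5.67% were. The basal keratin gene KRT14 rose in both lines, from 147 CPM to 317 to 389.6 CPM in A431 and from 134 CPM to 386 to 445 CPM in HaCaT. The growth factor receptor gene FGFR2 fell in A431 from 43.6 CPM to 29.1 to 29.7 CPM, and the cadherin gene CDH3 fell in HaCaT from 331 CPM to 208 to 250.2 CPM. The list medians were 0.26 in A431 and -0.03 in HaCaT, beside the same 0.03 for all genes. With YAP5SA in HaCaT 5 were called higher and 6 lower, where 13.6% of all genes were called, and in A431 0 were called. ITGB4, an integrin of the hemidesmosome, rose from 79.2 CPM to 149.7 to 222 CPM, and KRT15, a basal keratin gene, fell from 922 CPM to 104 to 322 CPM.

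Late differentiation genes were read from a list of 34, of which 22 were tested. With siYAP 4 were called higher and 0 lower in HaCaT, where 5.67% of all genes were called, and 0 were called in A431, where 5.6% were. The serine protease inhibitor gene SPINK5 rose in HaCaT from 8.19 CPM to 51.3 to 56.1 CPM, a log2 ratio of 2.73 (SE 0.420, FDR 0.00239 by edgeR). FLG, which encodes filaggrin, rose from 40.2 CPM to 167 to 221 CPM, a log2 ratio of 2.24 (SE 0.394, FDR 0.00561). TGM1, a cornified envelope transglutaminase gene, rose over both lines with a log2 ratio of 1.78 (SE 0.444, FDR 0.0197). The TGM1 value is the mean of the 2 line effects, and TGM1 was not called in A431 alone. The list medians were 0.42 in A431 and 0.83 in HaCaT, beside 0.03 for all genes in each line. With siYAP the 9 factors themselves gave no call in the higher direction in either line.

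With YAP5SA in HaCaT 1 of the 22 was called higher and 2 lower, where 13.6% of all genes were called. FLG rose from 108 CPM to 209 to 363 CPM, SPINK5 fell from 97.4 CPM to 17.7 to 39.9 CPM and KRT10, a suprabasal keratin gene, fell from 149 CPM to 11.8 to 29.3 CPM. KRT10 was also called lower over both lines, at -1.61 (SE 0.228, FDR 0.00636 by edgeR). That value is the mean of the 2 line effects, and in A431 alone 0 of the 22 were called. FLG was thus called higher in HaCaT both with siYAP and with YAP5SA, each against its own control.

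Genes known as targets of grainyhead-like factors in epithelia were read from a list of 15, all tested. With siYAP 1 was called in each line, where 5.6% of all genes in A431 and 5.67% in HaCaT were called. OCLN, which encodes the tight junction protein occludin, fell in A431 from 179 CPM to 93.2 to 94.2 CPM, a log2 ratio of -0.93 (SE 0.128, FDR 0.00202 by edgeR), and over both lines by 0.64 on the log2 scale. CDH1, the E-cadherin gene, rose in HaCaT from 363 CPM to 631 to 691 CPM. The medians were -0.06 in A431 and -0.01 in HaCaT, beside 0.03 for all genes in each line. With YAP5SA in HaCaT 4 were called higher and 1 lower, where 13.6% of all genes were called. The claudin gene CLDN4 rose from 40.5 CPM to 62.9 to 88.6 CPM and ESRP1, an epithelial splicing regulator, fell from 237 CPM to 156 to 189.5 CPM. In A431 0 were called.

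**Figure D4:**
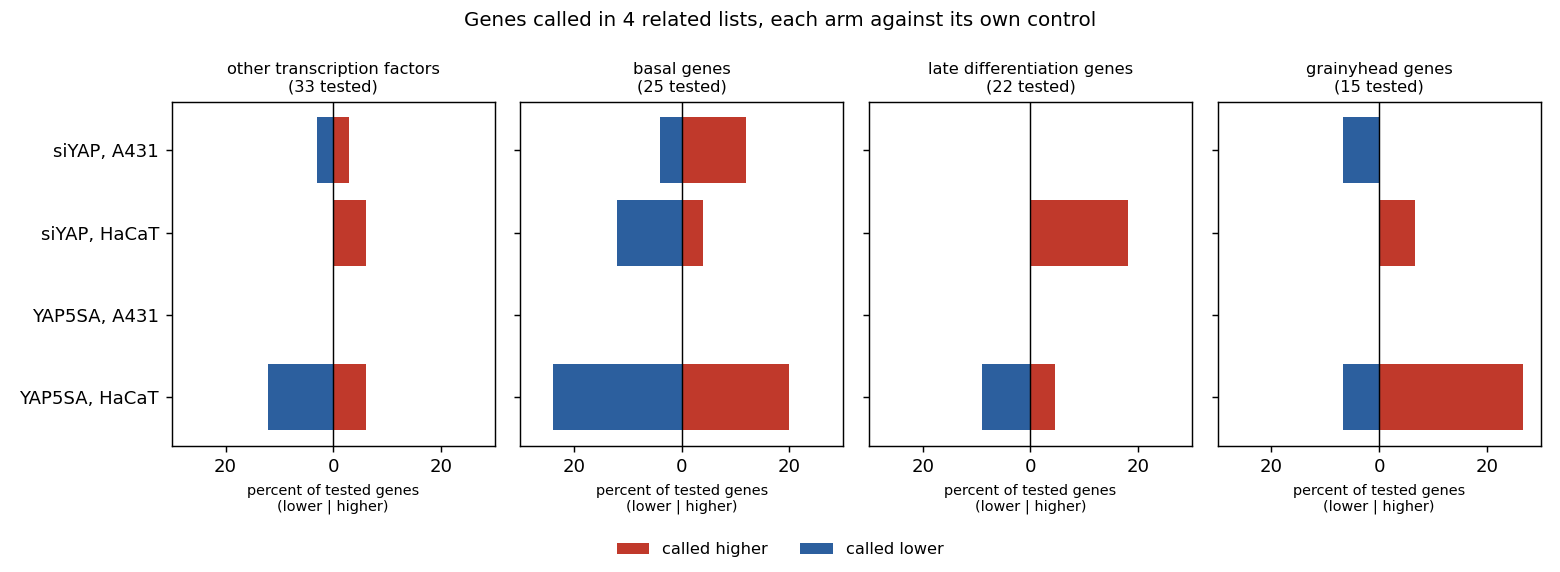
Share of tested genes called higher (right of 0) and lower (left of 0), in percent, in 4 lists for each arm against its own control. Late differentiation genes were called higher in HaCaT with siYAP (4 of 22, where 5.67% of all genes were called in either direction), and no list had a call in A431 with YAP5SA.

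The same lists were counted between the lines. Among siYAP libraries 24 of 33 other factors, 18 of 25 basal genes, 12 of 22 late genes and 11 of 15 grainyhead genes were called between A431 and HaCaT, where 58.5% of all genes were. Among YAP5SA libraries the counts were 20, 17, 8 and 12, where 50.2% of all genes were called. The late gene FLG was at up to 0.551 CPM in A431 siYAP libraries against 167 to 221 CPM in HaCaT. CALML5, a late calmodulin-like gene, was the reverse, at 9.56 to 17.4 CPM in A431 siYAP libraries and listed at 0 in at least 1 HaCaT siYAP library.

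Reads of opposite strands may be mixed for 3 factors. Exons of CEBPA, GRHL2 and OVOL1 overlap annotated genes on the opposite strand that are not in the count table. Whether counting used strand is not given in the sources used here.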

How the data were processed

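RNA of A431 and HaCaT cells was sequenced in 16 libraries. The authors deposited 1 table of estimated counts per gene from RSEM on RefSeq gene models. The study's methods have trimmed paired reads aligned through bowtie2. The submitters' processing notes name RSEM 1.2.11, edgeR and build hg19. The estimated counts were not all whole numbers, so they were rounded first. Depth ran from 18115624 to 46791673 pairs per library, so 3 counts equalled 0.0630 to 0.164 CPM.

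The 14673 genes averaging over 10 counts a library were analysed. In R 4.3.3 with edgeR 4.0.16, TMM factors (0.914 to 1.07) and a quasi-likelihood model of 8 groups with 8 residual degrees of freedom and a prior count of 0.125 were fitted to all libraries. Benjamini-Hochberg adjustment ran over every gene tested, and calls needed FDR < 0.05 with logCPM > 1, the study's own rule. The SE is the log2 fold change divided by the square root of F. Values given as an FDR in the text are edgeR's unless DESeq2 1.42.0 is named. In simulated data with 200 of 14587 genes changed by a log2 value of 1 in siYAP, 46.5% were recovered in A431, 53.5% in HaCaT and 86% over both lines. The changed genes were drawn from those with a mean above 200 counts. These shares therefore do not cover genes with few counts, such as ZNF750, smaller changes or YAP5SA.

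All 9 factors were described. From each list, up to 2 called genes per direction and comparison with the greatest log2 fold change, on 1 side of the reference in every library, could be named. The 9 factors, the 4 lists, the motifs and the UTR sites were chosen with earlier results of these data known. The comparison of line differences between arms was added after its values were seen. GENCODE v29 gave UTRs and overlaps, and RefSeq GRCh38.p14 gave promoters. Alternatives were DESeq2, RLE scaling, both count filters, FDR alone, the controls of a line pooled, each line alone, an additive model of line and treatment, the replicate block and each treated library left out. Same-numbered YAP5SA libraries of the 2 lines deviated together (r 0.134 to 0.35 over 3 pairs). The labels do not name such a pairing, and the main fit did not use it. Its tests between the lines therefore treat these libraries as independent. The replicate block alternative applied the numbers to every library with a numbered label. Replicate libraries differed by more than sampling noise. One planned cell type marker is not reported here.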

Additional observations from a re-analysis of the deposited data

Results flagged for a closer look

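For TP63, KLF5 and ZNF750 every A431 YAP5SA library lay on 1 side of its empty vector library and every HaCaT library on the other. None of the 3 was called in A431, and of the 3 only KLF5 was called in HaCaT. The effect in A431 minus that in HaCaT was 0.79 on the log2 scale for TP63, 0.83 for KLF5 and -2.07 for ZNF750. The edgeR test of the difference gave FDRs of 0.160, 0.135 and 0.152, none of which passed. Without YAP5SA replicate 1 of HaCaT the FDR was 0.0371 for TP63 and 0.0350 for KLF5. Each control was 1 library, and with siCTRL added as a second control the A431 values of TP63 (-0.11) and KLF5 (-0.12) had the same sign as those in HaCaT.

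The difference between the lines changed from the siYAP to the YAP5SA libraries for 6 factors by the edgeR test of that difference, chosen after the values were seen. On the log2 scale it was 2.75 for KLF4 (FDR 1.07e-05), -1.57 for KLF5 (7.08e-05), -0.86 for GRHL1 (0.00127), -1.83 for GRHL3 (0.00068), 0.72 for OVOL1 (0.00496) and -1.89 for CEBPA (0.00101). These 6 stand beside 40.2% of all genes.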

How the results depend on the processing

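Of 908 log2 ratios recomputed under alternatives, 827 kept their direction and their side of the threshold, 32 lost a call, 16 gained one and 33 changed sign. None of the 33 came from a called value. With the other control of a line added as a second control, the siYAP values that changed sign were TP63 (0.083), KLF4 (-0.44) and OVOL1 (-0.065) in A431, TP63 (-0.21), KLF4 (-2.30), GRHL1 (-0.019), GRHL3 (0.22) and OVOL1 (-0.41) in HaCaT, KLF4 over both lines (-1.37), and the difference of the GRHL2 effect between lines (0.090). The YAP5SA values were TP63 (-0.11), KLF5 (-0.12), GRHL2 (-0.054) and CEBPA (0.024) in A431, and KLF4 (0.78) and GRHL3 (-0.81) in HaCaT. With this setting the factors called numbered 0 in A431, 2 in HaCaT and 3 over both lines for siYAP, and 4 in HaCaT and 2 over both lines for YAP5SA. The cause of the other changes was not tested. Without a count filter siYAP called 0 factors in each line, and the GRHL2 difference between lines was 0.0045. With each line alone HaCaT gave 0 for siYAP and 0 for YAP5SA. DESeq2 gave 1 for YAP5SA over both lines. The filter of over 10 counts in each library left ZNF750 untested.

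With 1 treated library left out at a time, the factors called ranged from 0 to 1 for siYAP in A431 and in HaCaT, from 1 to 4 for YAP5SA in HaCaT, from 0 to 2 for YAP5SA over both lines, from 0 to 2 for its difference between lines and from 1 to 3 for YAP5SA against siYAP in A431. The siYAP log2 ratios then ranged from -0.040 to 0.079 for OVOL1 and -0.20 to 0.091 for ZNF750 in A431, and in HaCaT from -0.030 to 0.22 for CEBPA, -0.015 to 0.13 for GRHL1, -0.14 to 0.18 for KLF4 and -0.028 to 0.15 for TP63. The GRHL2 difference between lines ranged from -0.056 to 0.035. For YAP5SA, GRHL1 in A431 ranged from -0.093 to 0.020 and KLF4 in HaCaT from -0.16 to 0.072. The TP63 line difference between arms ranged from -0.17 to 0.19.

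The labels do not say what a replicate number marks. Same-numbered libraries deviated together with r above 0.1 in 6 of 18 pairs (-0.03 to 0.35), with all 3 pairs of YAP5SA libraries of the lines among them, and 7 of 12 libraries correlated best with their own number. With the replicate block OVOL1 (-0.045) and ZNF750 (0.092) with siYAP in A431 and TP63 with siYAP over both lines (0.0073) changed sign. Of the called values it lost that of ZNF750 for YAP5SA against siYAP in HaCaT. The count of factors called stayed within 1.5 times in each comparison. Single control libraries limit every comparison of an arm with its control.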
